A study of Xenopus laevis with 9 samples.

Results

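This comparison sets the primary mouth of the Xenopus laevis embryo against the anterior dorsal tissue of the same head region. It uses 6 of the 9 arrays of the series, 3 per tissue, and all 15491 probe sets that are no array controls. The African clawed frog embryos were at stage 26, a tailbud stage, and the labels name no mutation, transgene or drug in any group. Primary mouth tissue (samples 1a, 2 and 3) and anterior dorsal tissue (samples 1, 2 and 3) were dissected in buffered saline and put into Trizol, and, per the series' design text, tissues of 75 to 100 embryos were pooled. The third tissue, ventral tissue with the cement gland (3 samples), entered the fit for its estimate of spread, and its levels are given where they place a gene. The letter in 1a is not explained in the labels, nor is it stated whether samples came from separate clutches. The p-values therefore rest on the spread between these samples alone, and that spread may be technical.

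The primary mouth gives the embryo its earliest oral opening. It forms at the front of the head, where surface ectoderm lies directly on foregut endoderm with no mesoderm between them, and the layers thin, lose their basement membrane and finally perforate. Cells around it send and receive Wnt, Hedgehog, retinoic acid and kinin signals, and cranial neural crest cells later move in to build the face. The tissue just dorsal to it holds the anterior neural tube, the eye field derivatives and the nasal and lens ectoderm, so both pieces contain ectoderm and the dorsal one also holds brain.

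Signals ran from 0.0712 to 15617 units on the 6 arrays, on the authors' MAS5 scale. Pearson correlations of log2(signal + 16) over all 15491 probe sets were 0.959 to 0.989 between arrays of 1 tissue and 0.939 to 0.970 between the tissues. The arrays fell into 2 sets by their control probe sets, called batches here although the labels name none. Each batch held every tissue, but in unequal numbers. The contrast of the tissues was thus not balanced for batch, and the main fit had no batch term. The 3' to 5' signal ratio of beta-actin, which rises when RNA or its copies are shortened, was 5.48 to 11.2 in the first batch (primary mouth 1a and 2, anterior dorsal 1 and 1 ventral array) and 1.46 to 2.03 in the second (primary mouth 3, anterior dorsal 2 and 3 and 2 ventral arrays). The marker lists differed in the direction of the labels. The markers were chosen with earlier results of these data known, so this is no independent check. Summed signals of 6 primary mouth markers were 1013 to 1806 in primary mouth against 227 to 282 in anterior dorsal tissue, and those of 6 markers of the dorsal head were 578 to 765 in primary mouth against 2189 to 2446 in anterior dorsal tissue.

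Of the 15491 probe sets, 10011 reached the level needed for a test, which was at least 3 of the 9 arrays above their own array's 40th percentile. In limma, 957 of these differed at an adjusted p under 0.05, which is 9.56% of those tested. Signals of 469 (4.68%) were higher in primary mouth and those of 488 (4.87%) were lower. A difference of more than 1 on the log2 scale was reached by 205 of the higher and 287 of the lower probe sets. The 3 arrays of a tissue lay wholly above or below those of the other for 952 of the 957 (9.51% of all tested), and for 26.2% of all tested probe sets. All 469 and all 488 kept their direction within each batch. For the 952 without overlap this was fixed in advance, so it is no separate check. With batch in the model, 791 were higher and 812 lower, among them every probe set called without that term. In the fits without anterior dorsal 2 or 3 the count of higher probe sets dropped to 292 and 282, a move of over 1.5 times.

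**Figure D1:**
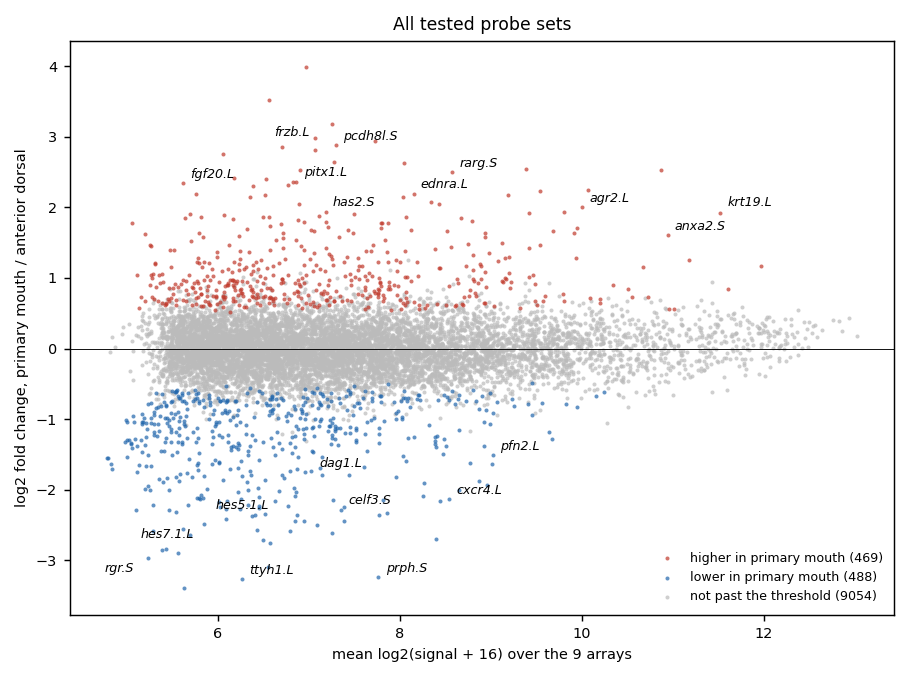
Each point is 1 of the 10011 tested probe sets, with its mean log2(signal + 16) over the 9 arrays on the horizontal axis and its log2 fold change, primary mouth over anterior dorsal tissue, on the vertical axis. Red points (469) passed the threshold as higher in primary mouth and blue points (488) as lower, and the labelled genes are described in the text.

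The probe sets with 1 gene name stand for 5375 gene copies, written .L and .S for the 2 subgenomes of this species, and probe sets may detect both copies. Of these copies 526 (9.79%) passed the threshold, 264 higher (4.91%) and 262 lower (4.87%). Their median log2 fold change was -0.01, and 2651 of 5375 lay above 0. These shares are the background for the gene lists below. Lists share members, so a gene copy can be counted in several of them, and their counts are not separate findings. In such bulk tissue, fewer cells of a type and less RNA per cell cannot be told apart. Outside the forebrain, heart, blood and plasma protein lists, the largest increase among gene copies whose arrays did not overlap was that of the protocadherin gene pcdh8l.S, an adhesion gene (gene ID 100528028), and the largest decrease that of ttyh1.L (gene ID 447239), a membrane channel gene of neural progenitors. Signals of pcdh8l.S were 303, 362 and 574 in primary mouth samples 1a, 2 and 3 and 47.3, 38.8 and 35.001 in anterior dorsal samples 1, 2 and 3 (log2 fold change 2.88 ± 0.21 (SE), adjusted p = 1.11e-05). Signals of ttyh1.L were 20.6, 38.7 and 21.1 in primary mouth against 394, 399.5 and 378 in anterior dorsal tissue (log2 fold change -3.27 ± 0.25, adjusted p = 1.17e-05). In neither gene did the arrays of the tissues come near each other.

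**Figure D2:**
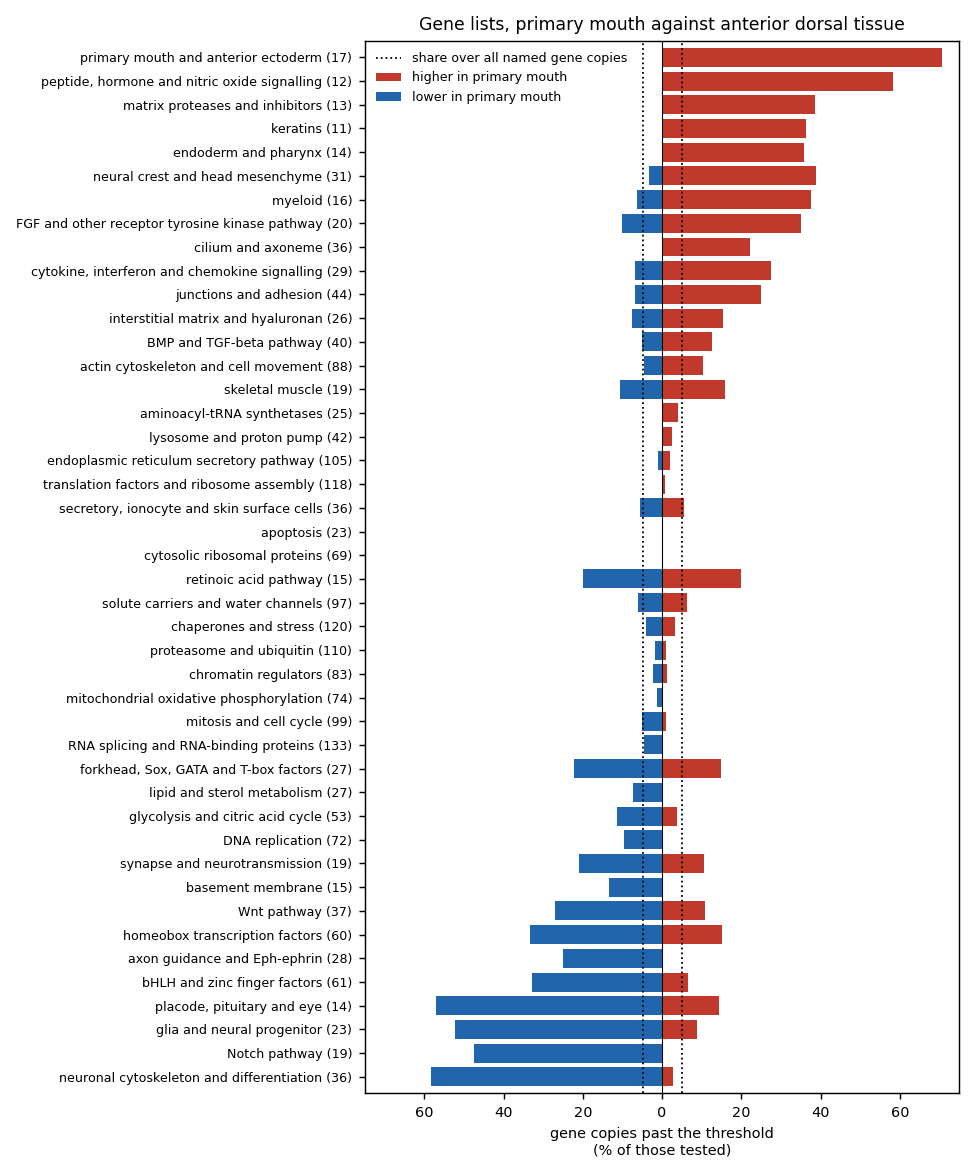
Bars show, for each gene list with at least 10 tested gene copies (number in brackets) other than the forebrain, heart, blood and plasma protein lists, the share past the threshold in limma as higher (red, to the right) or lower (blue, to the left) in primary mouth, in percent. Dotted lines mark the shares over all 5375 named gene copies, 4.91% higher and 4.87% lower. Lists can share gene copies. Among the lists drawn, the primary mouth list and the peptide and nitric oxide list reached furthest to the right, and the neuronal cytoskeleton, placode and eye, glia and Notch lists furthest to the left.

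Most tested gene copies of the primary mouth list, which also counts pcdh8l.S described above, were higher. Of 17 tested gene copies of the primary mouth and anterior ectoderm list, 12 were higher and the other 5 did not pass, with a median log2 fold change of 1.79. This list was drawn up from knowledge of the primary mouth that may partly come from these same samples, so its direction is not independent evidence. The secreted Wnt antagonist frzb was higher in both copies. Signals of frzb.L were 331, 209 and 932 in primary mouth against 32.9, 64.03 and 33.4 in anterior dorsal tissue, so that sample 3 of the mouth stood well above samples 1a and 2. Those of frzb.S were 359.6, 139 and 418 in primary mouth against 41.2, 26.8 and 17.5 in anterior dorsal tissue. Log2 fold changes were 2.86 ± 0.41 for frzb.L and 2.76 ± 0.33 for frzb.S (adjusted p = 0.000661 and 0.000184). The homeobox gene pitx1.L (gene ID 394310), a marker of the stomodeum and cement gland, had signals of 209, 239.8 and 191 in primary mouth, 30.97, 29.5 and 25.04 in anterior dorsal and 168, 164 and 98.4 in ventral tissue (log2 fold change 2.36 ± 0.20, adjusted p = 2.09e-05). Its arrays were tight in both tissues. The Hedgehog ligand gene shh.L did not pass. It had signals of 322, 209 and 109.7 in primary mouth against 115, 133 and 117 in anterior dorsal tissue (log2 fold change 0.63 ± 0.30, adjusted p = 0.235), and the arrays of the tissues overlapped.

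The calls among genes of small peptide, kinin and nitric oxide signalling were all higher. Of 12 tested gene copies (53 on the array), 7 were higher and the other 5 did not pass, and the median log2 fold change was 1.17. All 7 calls held without each array in turn. Kininogen, the precursor from which kinins are cut, is encoded by kng1.L, whose signals were 522, 934 and 989.6 in primary mouth, 251, 265 and 196 in anterior dorsal and 70.8, 81.9 and 127 in ventral tissue. The gene cpn1.S, which encodes the catalytic subunit of the kinin-trimming enzyme carboxypeptidase N, had signals of 126, 103 and 196 in primary mouth, 23.1, 17.8 and 12.7 in anterior dorsal and 13.4, 18.5 and 13.3 in ventral tissue. Neuronal nitric oxide synthase, nos1.L, had 631, 687 and 477 in primary mouth, 262, 193 and 203 in anterior dorsal and 138, 104 and 116 in ventral tissue. For all 3 genes every primary mouth array lay above every array of the other tissues. Log2 fold changes against anterior dorsal tissue were 1.67 ± 0.26 for kng1.L, 2.19 ± 0.22 for cpn1.S and 1.38 ± 0.19 for nos1.L (adjusted p = 0.00113, 4.84e-05 and 0.000463). These 3 genes are known from work on the primary mouth and were among those chosen by name. That knowledge may partly come from these same samples, so their direction is not independent evidence. The list also overlaps the primary mouth list, as klkb1.L, which did not reach the level needed for a test, is in both.

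The higher calls of that group included the peptide receptor genes ednra.L and aplnr.S. Many other receptor genes of the list, among them the agtr1 and npr1 copies, cckbr.L and trhr.S, did not reach the level needed for a test. The endothelin receptor gene ednra.L (gene ID 380342), which marks cranial neural crest, had signals of 729, 547 and 665 in primary mouth, 179, 105 and 110.4 in anterior dorsal and 288, 215 and 187 in ventral tissue (log2 fold change 2.19 ± 0.22, adjusted p = 5.5e-05). The apelin receptor gene aplnr.S, active in vessel and heart precursors, had 405, 296 and 265 in primary mouth, 92.3, 85.4 and 81.1 in anterior dorsal and 327, 263 and 335 in ventral tissue (log2 fold change 1.70 ± 0.18, adjusted p = 8.45e-05). Levels of ednra.L were highest in the mouth, whereas the mouth and ventral arrays of aplnr.S overlapped.

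Growth factor ligands and receptors that act through tyrosine kinases were called higher more often than lower. Of 20 tested gene copies, 7 were higher and 2 lower, with a median of 0.20. The 6 higher calls that held without each array included fgf20.L (gene ID 399105), a fibroblast growth factor, ntrk2.L (gene ID 379266), the receptor TrkB for brain-derived neurotrophic factor, and a ligand and receptor of platelet-derived growth factor. Signals of fgf20.L were 109.6, 97.9 and 89.04 in primary mouth against 12.1, 5.95 and 2.74 in anterior dorsal tissue (log2 fold change 2.34 ± 0.18, adjusted p = 1.17e-05). Those of ntrk2.L were 245, 159.5 and 269 in primary mouth, 30.9, 30.7 and 33.2 in anterior dorsal and 30.4, 49.3 and 31.1 in ventral tissue (log2 fold change 2.31 ± 0.21, adjusted p = 3.31e-05). The 3 anterior dorsal arrays of ntrk2.L were nearly equal, and the lowest mouth array lay far above them.

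The ligand gene pdgfa.S (gene ID 397765) and the receptor gene pdgfra.L (gene ID 380245), whose products guide mesenchyme cells in many vertebrate tissues, were both higher. Signals of pdgfa.S were 116, 76.3 and 108 in primary mouth, 16.4, 14.9 and 15.6 in anterior dorsal and 36.5, 29.2 and 34.5 in ventral tissue (log2 fold change 1.86 ± 0.17, adjusted p = 3.31e-05). Those of pdgfra.L were 393, 312 and 304 in primary mouth, 118, 109.7 and 106 in anterior dorsal and 201, 192 and 168 in ventral tissue (log2 fold change 1.46 ± 0.16, adjusted p = 9.21e-05). Both genes had their highest arrays in the mouth and intermediate ones in ventral tissue. The 2 lower calls of this list were the copies of fgfr4, with log2 fold changes of -0.69 ± 0.18 (.L) and -0.94 ± 0.23 (.S). Neither held without primary mouth 1a or 2 or anterior dorsal 2 or 3 (adjusted p = 0.0658, 0.092, 0.122 and 0.136 for fgfr4.L, and 0.0824, 0.0906, 0.108 and 0.0889 for fgfr4.S).

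**Figure D3:**
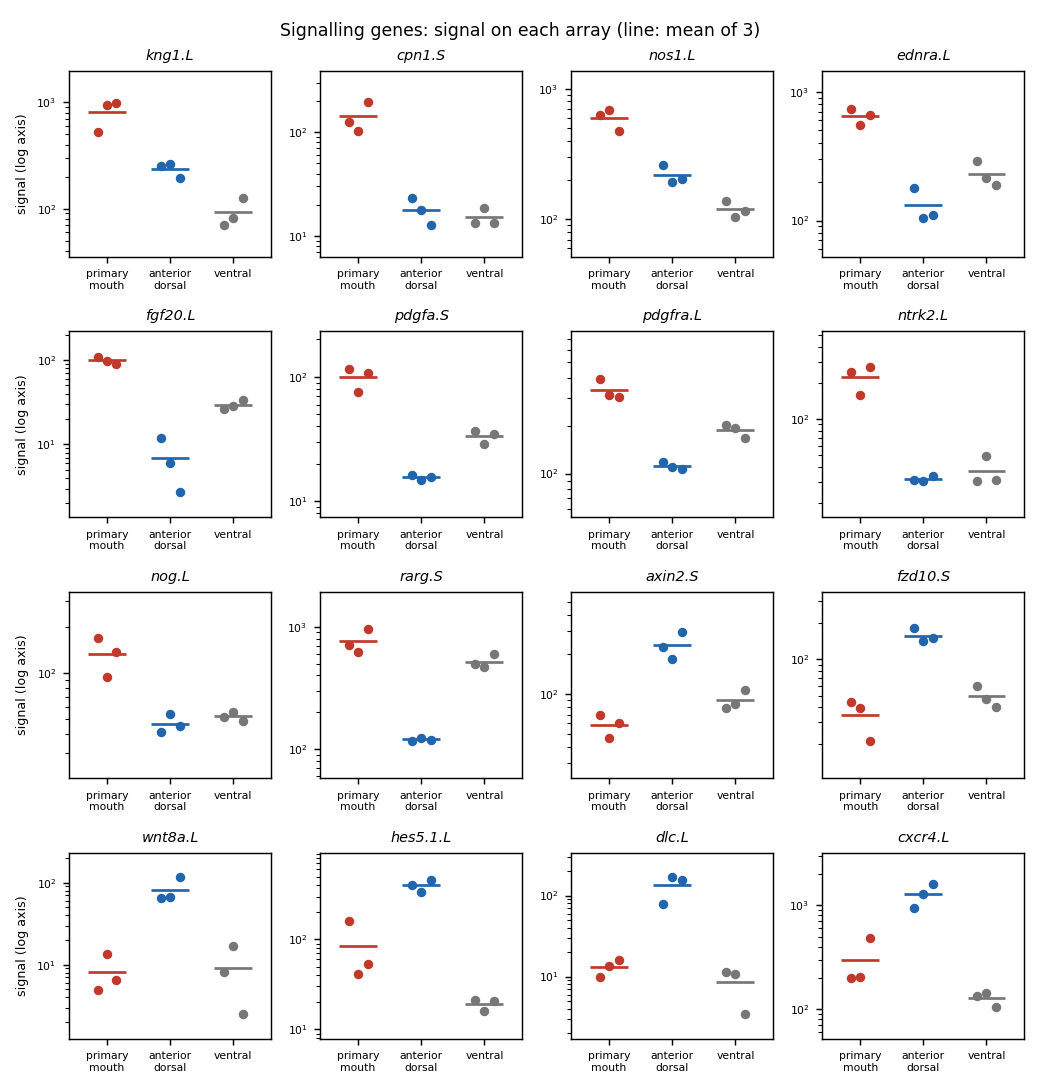
Points give the MAS5 signal (log axis) of 16 signalling genes on each array, with primary mouth (red), anterior dorsal (blue) and ventral tissue with the cement gland (grey) from left to right, and lines give the mean of 3 arrays. In the first 10 panels, from kng1.L to rarg.S, all 3 primary mouth arrays lie above all 3 anterior dorsal arrays, and in the last 6, from axin2.S to cxcr4.L, they lie below them.

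Wnt pathway genes went both ways, with more lower than higher. Of 37 tested gene copies, 10 were lower and 4 higher, and the median was -0.17. The higher ones were both copies of the secreted inhibitor frzb, dkk1.S and the receptor gene fzd2.S (adjusted p = 0.0173 and 0.0367 for the last 2). The lower ones held ligand, receptor and feedback genes, so receptor genes went both ways. Without anterior dorsal 3 the count of higher copies was 2, as dkk1.S and fzd2.S lost their calls. The call of fzd2.S was also lost without primary mouth 1a or 3, anterior dorsal 2 or ventral 2. The ligand gene wnt8a.L (gene ID 397970) had signals of 4.88, 13.5 and 6.43 in primary mouth against 64.7, 66.5 and 116 in anterior dorsal tissue (log2 fold change -1.999 ± 0.25, adjusted p = 0.000232), and wnt3a.S, a ligand of the dorsal neural tube, differed by -1.90 ± 0.29 (adjusted p = 0.000924). The receptor gene fzd10.S had 44.2, 39.4 and 20.9 in primary mouth against 179, 142 and 149 in anterior dorsal tissue (log2 fold change -1.79 ± 0.21, adjusted p = 0.000151). Transcripts of axin2.S (gene ID 447702), a feedback inhibitor and common readout of Wnt and beta-catenin activity, were at 69.1, 46.4 and 60.7 in primary mouth against 229, 185 and 297 in anterior dorsal tissue (log2 fold change -1.75 ± 0.20, adjusted p = 0.000144). All 3 mouth arrays of each gene lay below all 3 anterior dorsal arrays, and those of wnt8a.L were near the bottom of the scale.

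The calls among Notch pathway genes were all lower. Of 19 tested gene copies, 9 were lower and the other 10 did not pass, 1 of 19 had a log2 fold change above 0, and the median was -0.68. Of the 9 calls, 7 held without each array. The ligand gene dlc.L had signals of 9.88, 13.6 and 15.9 in primary mouth against 79.5, 169.6 and 154 in anterior dorsal tissue (log2 fold change -2.31 ± 0.24, adjusted p = 7.68e-05). Among the Hes repressors, which Notch switches on in neural progenitors, hes5.1.L (gene ID 379151) had 160.4, 41.7 and 52.9 in primary mouth against 406, 339 and 462 in anterior dorsal tissue (log2 fold change -2.23 ± 0.33, adjusted p = 0.00092). Sample 1a stood above the other mouth samples for hes5.1.L and was still below the anterior dorsal arrays. The decreases of hes5.2.L (-2.35 ± 0.26), hes5.2.S (-2.10 ± 0.26) and hes7.1.L (-2.84 ± 0.23) were of like size. Markers of the dorsal head fell along with this list, as given above, and their part in the result was not tested.

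The BMP, Hedgehog and retinoic acid lists held changes in both directions. Of 40 BMP and TGF-beta gene copies, 5 were higher and 2 lower (10 higher and 2 lower with batch in the model), with a median of 0.10. Without primary mouth 1a or 3, anterior dorsal 2 or 3, or ventral 2, 3 were higher, and 1 was lower in each leave-one-out fit except that without ventral 3. The BMP antagonist gene nog.L had signals of 171, 94.3 and 137 in primary mouth against 41.4, 54.2 and 44.97 in anterior dorsal tissue (log2 fold change 1.23 ± 0.20, adjusted p = 0.00152). The other classical antagonist, chrd.1.S, went the opposite way, with 17.7, 29.8 and 19.8 in primary mouth against 79.8, 60.1 and 58.9 in anterior dorsal tissue (log2 fold change -1.10 ± 0.18, adjusted p = 0.00133). The arrays of the tissues did not overlap for either antagonist. The receptor gene bmpr1a.L was higher by 0.73 ± 0.15 (adjusted p = 0.00656) and the TGF-beta-induced adaptor gene tgfb1i1.L by 1.06 ± 0.17 (adjusted p = 0.00129).

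In the Hedgehog list 2 of 8 gene copies were higher and 2 lower, and all 4 calls held without each array. The higher genes were the antagonist and target gene hhip.L (0.81 ± 0.17, adjusted p = 0.00845) and the mesenchymal target gene foxf1.L (1.39 ± 0.22, adjusted p = 0.00133). The lower ones were the repressor gene gli3.L (-1.42 ± 0.22, adjusted p = 0.00124) and the ventral neural gene nkx2-2.S (-0.76 ± 0.16, adjusted p = 0.00812). Signals of hhip.L were 237, 174 and 210.4 in primary mouth against 104, 115 and 112 in anterior dorsal tissue, and those of gli3.L were 47.8, 34.6 and 46.2 in primary mouth against 94.8, 162 and 178 in anterior dorsal tissue. Neither pair of groups overlapped.

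Retinoic acid genes changed in both directions. Of 15 tested gene copies 3 were higher and 3 lower. The receptor gene rarg.S (gene ID 397983) had signals of 709, 618 and 967 in primary mouth, 116, 124 and 119 in anterior dorsal and 493, 467 and 598 in ventral tissue (log2 fold change 2.50 ± 0.18, adjusted p = 1.06e-05). The gene cyp26c1.S, which encodes an enzyme that degrades retinoic acid, had 1025, 1007 and 752 in primary mouth, 298, 219 and 396 in anterior dorsal and 335, 395 and 446 in ventral tissue (log2 fold change 1.58 ± 0.22, adjusted p = 0.000476). Every mouth array of both genes lay above every array of the other tissues. The orphan nuclear receptor genes nr2f1.L (-2.001 ± 0.20) and nr2f2.L (-1.23 ± 0.26), which are targets of retinoic acid in neural tissue, were lower (adjusted p = 4.37e-05 and 0.00952).

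Genes of cytokine and interferon responses rose more often than they fell. Of 29 tested gene copies 8 were higher and 2 lower, and the median was 0.41. The feedback inhibitor gene socs3.L had signals of 337, 216 and 386 in primary mouth against 57.2, 52.8 and 117 in anterior dorsal tissue (log2 fold change 1.87 ± 0.30, adjusted p = 0.00128). The interferon regulatory factor gene irf1.S had 135, 123 and 124 in primary mouth against 45.1, 20.3 and 46.98 in anterior dorsal tissue (log2 fold change 1.46 ± 0.22, adjusted p = 0.00102). The prostaglandin synthase gene ptgs2.S (cyclooxygenase) had 1505, 1268 and 728 in primary mouth against 546, 266 and 420.4 in anterior dorsal tissue (log2 fold change 1.46 ± 0.29, adjusted p = 0.00656). Mouth arrays of all 3 genes lay above the anterior dorsal arrays, by the narrowest margin for ptgs2.S in sample 3. The lower genes were the chemokine receptor gene cxcr4.L, with 201, 204 and 481 in primary mouth against 937, 1274 and 1609 in anterior dorsal tissue (log2 fold change -2.13 ± 0.30, adjusted p = 0.000649), and cxcl14.L, a chemokine gene (-1.58 ± 0.24, adjusted p = 0.000936). The myeloid list was higher in 6 of 16 gene copies (3 without anterior dorsal 3) and lower in 1. That lower call was cxcr4.L, which is counted in both lists. Higher myeloid calls were led by the peroxidase gene mpo.S (1.72 ± 0.18, adjusted p = 7.41e-05) and the oxidase subunit gene cyba.L (1.39 ± 0.23, adjusted p = 0.00208). Summed signals of 7 myeloid markers were 337 to 364 in primary mouth against 185 to 232 in anterior dorsal tissue. Of the 6 copies tested mpo.S alone passed, and the part of these markers in the cytokine result was not tested.

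Homeobox genes changed in both directions. Their list shares members with the forebrain and heart lists, among them the heart gene nkx2-5.S. Of 60 tested gene copies, 9 were higher and 20 lower, and all 9 and 18 of the 20 held without each array. Besides pitx1.L, the higher ones included dlx2.S, a gene of branchial arch neural crest, with signals of 598, 512 and 232 in primary mouth against 111, 138 and 68.2 in anterior dorsal tissue (log2 fold change 1.87 ± 0.35, adjusted p = 0.00432). The gene pitx3.L, known from lens and midbrain, is also counted in the primary mouth list. It had 99.7, 67.6 and 184 in primary mouth against 14.5, 28.2 and 14.9 in anterior dorsal tissue (log2 fold change 1.85 ± 0.28, adjusted p = 0.000924). Sample 3 was the lowest mouth array for dlx2.S and the highest for pitx3.L. The pharyngeal genes nkx2-3.L (1.57 ± 0.19) and nkx2-3.S (1.91 ± 0.17) were higher in both copies, with adjusted p = 0.000195 and 2.46e-05.

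Lower homeobox genes included the photoreceptor and pineal gene crx.S, with 13.7, 16.02 and 17.4 in primary mouth against 97.6, 142 and 106 in anterior dorsal tissue (log2 fold change -2.03 ± 0.21, adjusted p = 6.65e-05). The neural plate border gene pax3.S had 137, 181 and 149 in primary mouth against 799, 876 and 706 in anterior dorsal tissue (log2 fold change -2.24 ± 0.25, adjusted p = 0.000116). The gene not.L, counted in the notochord list, was lower, with a log2 fold change of -2.01 ± 0.22 (adjusted p = 8.96e-05). Its other copy not.S did not pass (-0.02 ± 0.33, adjusted p = 0.981). The head gene otx2.L, which acts in both mouth ectoderm and brain, had 199, 167 and 207 in primary mouth, 414, 443 and 449 in anterior dorsal and 80.4, 88.6 and 120.2 in ventral tissue (log2 fold change -1.13 ± 0.17, adjusted p = 0.000981). The mouth arrays of otx2.L lay between those of the other tissues. Of 3 tested Hox gene copies (21 on the array) limma called 0, and 0 had an unadjusted p under 0.05.

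Of 61 bHLH and zinc finger gene copies, 20 were lower and 4 higher, and without anterior dorsal 1 or 2 the higher count was 2. Both calls that held throughout were for repressors. The gene prdm1.S had signals of 185, 113 and 279.9 in primary mouth against 24.4, 36.7 and 13.1 in anterior dorsal tissue (log2 fold change 2.32 ± 0.34, adjusted p = 0.000732). The gene snai1.S, whose product represses epithelial genes in migrating crest cells, had 383, 148 and 207 in primary mouth against 44.1, 67.9 and 76.01 in anterior dorsal tissue (log2 fold change 1.66 ± 0.29, adjusted p = 0.00247). Neither gene's arrays overlapped between the tissues. Among 27 forkhead, Sox, GATA and T-box gene copies 4 were higher and 6 lower. The higher ones included sox17a.L (1.45 ± 0.26), an endoderm gene, and tbx1.L (1.21 ± 0.24), a gene of pharyngeal endoderm and arch mesoderm, with adjusted p = 0.00296 and 0.00569. The lower ones included the neural progenitor genes sox2.L (-1.20 ± 0.20) and sox3.S (-2.16 ± 0.24), with adjusted p = 0.00178 and 0.000107, and foxd1.L (-1.04 ± 0.15, adjusted p = 0.000736).

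Many neural crest, head mesenchyme and pharyngeal genes were higher. Of 31 crest and mesenchyme gene copies 12 were higher and 1 lower, with a median of 0.61. The higher ones included dlx2.S, ednra.L, pdgfra.L, snai1.S and foxf1.L described above, and the lower one was foxd1.L. Of 14 endoderm and pharynx gene copies 5 were higher (8 with batch in the model), the other 9 did not pass, and the median was 0.57. Summed signals of the early crest markers snai2, sox10 and foxd3 were 35.8 to 61.2 in primary mouth against 98.9 to 106 in anterior dorsal tissue, and 0 of the 5 copies of these genes on the array reached the level needed for a test.

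Some epithelial genes were higher in the mouth piece. Of 11 keratin gene copies 4 were higher and the other 7 did not pass. The 4 were both copies of krt18.1 and of krt19, type I keratins known from simple epithelia. Signals of krt18.1.L were 1274, 1238 and 2686 in primary mouth against 262, 403 and 338 in anterior dorsal tissue (log2 fold change 2.24 ± 0.29, adjusted p = 0.000299). Those of krt19.L (gene ID 432054) were 4184, 4837 and 4007 in primary mouth against 1235, 1254 and 949 in anterior dorsal tissue (log2 fold change 1.91 ± 0.19, adjusted p = 4.7e-05). Sample 3 of the mouth was the highest for krt18.1.L, and no array overlapped for either gene. The copies krt18.1.S (1.86 ± 0.25) and krt19.S (1.16 ± 0.20) changed alike. The median of the whole list was 0.17 and turned to -0.12 after quantile normalization.

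Of 44 genes of junctions and adhesion, 11 were higher and 3 lower (18 higher and 4 lower with batch in the model), with a median of 0.29. The higher ones included cldn6.1.L, a tight junction claudin of embryonic epithelia, with signals of 134, 131 and 155 in primary mouth against 37.8, 20.05 and 33.4 in anterior dorsal tissue (log2 fold change 1.76 ± 0.19, adjusted p = 9.1e-05). The gap junction gene gjb2.L had 169, 209 and 327 in primary mouth, 62.8, 49.99 and 52.02 in anterior dorsal and 643, 644 and 620.2 in ventral tissue (log2 fold change 1.78 ± 0.21, adjusted p = 0.000153). The protocadherin gene pcdh8.2.L, a relative of pcdh8l.S, had 146, 140.5 and 168 in primary mouth against 35.3, 30.5 and 31.2 in anterior dorsal tissue (log2 fold change 1.79 ± 0.17, adjusted p = 3.67e-05). Their anterior dorsal arrays were low throughout, and for gjb2.L the ventral arrays were the highest. The lower ones included cdh2.L, the N-cadherin of neural tissue, with 78.1, 100.1 and 51.9 in primary mouth against 264, 291 and 273 in anterior dorsal tissue (log2 fold change -1.69 ± 0.25, adjusted p = 0.000933), and the connexin gene gja7.S (-0.91 ± 0.18, adjusted p = 0.00588).

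Higher calls among cilium genes were mostly lost when single arrays were left out. Of 36 cilium and axoneme gene copies 8 were higher and the other 28 did not pass, but only tekt2.S kept its call without each array. The count was 3 without primary mouth 1a, 2 without primary mouth 2 or anterior dorsal 2, 1 without anterior dorsal 3 and 5 without ventral 2. Signals of tekt2.S, a tektin of the axoneme, were 124, 119 and 103 in primary mouth against 58.6, 49.9 and 50.4 in anterior dorsal tissue (log2 fold change 0.93 ± 0.15, adjusted p = 0.0018). Among 36 genes of secretory cells, ionocytes and the skin surface 2 were higher and 2 lower (7 lower with batch in the model), a share near the background. The lower count was 0 without primary mouth 1a or 2, anterior dorsal 2 or 3 or ventral 2, 1 without ventral 3 and 4 without primary mouth 3, and the higher count was 1 without anterior dorsal 3. The galectin gene lgals4.2.L was higher without each array, with 657, 447 and 819 in primary mouth, 174, 189 and 106 in anterior dorsal and 3479, 2608 and 2911 in ventral tissue (log2 fold change 1.93 ± 0.25, adjusted p = 0.00029). Mouth arrays lay well below the ventral ones for lgals4.2.L. Summed signals of 3 surface epidermis markers were 12637 to 17341 in primary mouth against 12028 to 13295 in anterior dorsal tissue, and 0 of the 3 passed in limma.

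Cement gland genes were higher in primary mouth. Of 5 tested gene copies 4 were higher (5 with batch in the model) and the other 1 did not pass, with a median of 1.93. Without primary mouth 3 or any anterior dorsal array 3 were higher, as ag1.L lost its call (adjusted p = 0.0635 to 0.0916). The 3 that held were both copies of agr2 and pitx1.L, which is described above with the primary mouth genes. The disulfide isomerase gene agr2.L, which the gland secretes, had signals of 1429, 915 and 1152 in primary mouth, 288, 417 and 171 in anterior dorsal and 3240.4, 2978 and 3394 in ventral tissue (log2 fold change 1.999 ± 0.27, adjusted p = 0.000378). Its copy agr2.S differed by 1.93 ± 0.38 (adjusted p = 0.00588). Mouth arrays of agr2.L lay between those of the tissues on both sides. The related ag1.S had 1688, 1343 and 2845 in primary mouth, 1005, 1342 and 1342 in anterior dorsal and 7181, 4989.7 and 7202 in ventral tissue and did not pass (log2 fold change 0.60 ± 0.26, adjusted p = 0.192). Summed signals of 5 gene copies of the cement gland were 5420 to 8896 in primary mouth, 2896 to 3869 in anterior dorsal and 16948 to 23342 in ventral tissue, and their part in other results was not tested.

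A hyaluronan synthase gene copy and a versican gene copy were higher, and a pair of receptor genes counted in the basement membrane list were lower. Of 26 genes of interstitial matrix and hyaluronan 4 were higher and 2 lower (8 higher and 6 lower with batch in the model). The hyaluronan synthase gene has2.S (gene ID 399146) had signals of 287, 114 and 432 in primary mouth against 47.8, 66.99 and 43.7 in anterior dorsal tissue (log2 fold change 1.94 ± 0.37, adjusted p = 0.00488). The proteoglycan gene vcan.L (versican), whose product binds hyaluronan, had 985, 753 and 827 in primary mouth against 273, 272 and 247 in anterior dorsal tissue (log2 fold change 1.63 ± 0.18, adjusted p = 9.6e-05). The elastic fibre gene emilin1.L had 292, 368 and 345 in primary mouth against 151, 163 and 162 in anterior dorsal tissue (log2 fold change 1.003 ± 0.16, adjusted p = 0.00127). These 3 calls held without each array, although has2.S varied widely among the mouth samples. Both lower calls were lost without anterior dorsal 2 or 3, and 1 remained without primary mouth 2 or 3 or ventral 3.

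The basement membrane list holds laminins, collagen IV, nidogens, related sheet proteins and cell surface receptors. Its integrins were not limited to those that bind the sheet. Of 15 tested gene copies (29 on the array) 2 were lower and the other 13 did not pass, with a median of 0.02. With batch in the model 3 were higher and 4 lower. The collagen IV genes col4a1.L and col4a2.L and several integrin genes did not reach the level needed for a test. Both lower genes encode receptors and not components of the sheet. The dystroglycan gene dag1.L (gene ID 398500), a laminin receptor, had signals of 169, 106 and 121 in primary mouth against 397, 371 and 376 in anterior dorsal tissue (log2 fold change -1.45 ± 0.19, adjusted p = 0.000343). The integrin gene itgb5.L had 40.1, 42.8 and 30.6 in primary mouth against 173, 117 and 124 in anterior dorsal tissue (log2 fold change -1.50 ± 0.23, adjusted p = 0.000918). The arrays of the tissues lay far apart for both. Of 13 matrix proteases and inhibitors 5 were higher (3 without primary mouth 1a or 2 or anterior dorsal 3, and 2 without anterior dorsal 2). The calls that held were the metalloprotease gene mmp28.L, with 400.3, 374 and 283 in primary mouth against 198, 124 and 145 in anterior dorsal tissue (log2 fold change 1.11 ± 0.20, adjusted p = 0.00285), and the cathepsin gene ctss.S (1.05 ± 0.19, adjusted p = 0.00313).

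Neuronal genes were lower, and those of the cytoskeleton most often. Of 36 gene copies of neuronal cytoskeleton and differentiation 21 were lower (20 without each array) and 1 was higher, and the median was -1.32. The intermediate filament gene prph.S (peripherin, gene ID 379545) had signals of 141, 95.2 and 93.1 in primary mouth against 1251, 1117 and 1098 in anterior dorsal tissue (log2 fold change -3.24 ± 0.24, adjusted p = 1.09e-05). The gene dpysl3.L, which encodes a collapsin response mediator protein of growing axons, had 172, 208 and 167 in primary mouth against 1076, 903 and 963 in anterior dorsal tissue (log2 fold change -2.33 ± 0.21, adjusted p = 3.19e-05). Its relatives dpysl2.L (-2.22 ± 0.21), dpysl3.S (-2.44 ± 0.23) and dpysl4.L (-2.07 ± 0.21) were lower by like amounts, as were the synuclein genes sncb.S (-2.12 ± 0.22) and sncg.S (-2.08 ± 0.23). Ventral signals of sncg.S were 357, 520.2 and 652, unlike those of sncb.S, which were 13.7, 17.4 and 3.195. The higher call, for mab21l3.S (0.68 ± 0.18), was lost without primary mouth 2, anterior dorsal 2 or 3, or ventral 2 (adjusted p = 0.108, 0.145, 0.125 and 0.0519).

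Genes of the synapse changed in both directions. Of 19 tested gene copies (72 on the array) 4 were lower and 2 higher, and the median was 0.08. The lower ones were the vesicle and release genes snap25.L (-1.84 ± 0.17), syp.L (-1.28 ± 0.17) and rab3a.L (-1.47 ± 0.24) and the receptor gene gabbr1.L (-0.96 ± 0.17), with adjusted p = 3.33e-05, 0.000312, 0.00144 and 0.00338. Signals of snap25.L were 15.2, 11.2 and 11.5 in primary mouth against 70.3, 82.7 and 109.96 in anterior dorsal tissue. The potassium channel gene kcnj16.S, higher by 0.73 ± 0.15 (adjusted p = 0.00678), is known from transporting epithelia as well as glia. Without primary mouth 1a or 2, any anterior dorsal array or ventral 2 it was the only higher call. Of 28 genes of axon guidance and Eph and ephrin signalling 7 were lower and the other 21 did not pass, and the 4 with the largest decrease were the dpysl genes above.

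Genes of glia and neural progenitors followed. Of 23 tested gene copies 12 were lower and 2 higher, with a median of -0.82 (1 higher without primary mouth 1a or 2, anterior dorsal 1 or 3 or any ventral array). The membrane glycoprotein gene gpm6b.S had signals of 139, 129 and 102 in primary mouth against 585, 846 and 667 in anterior dorsal tissue (log2 fold change -2.36 ± 0.23, adjusted p = 4.07e-05). The higher call that held without each array was pmp22.L, a myelin protein gene also used by neural crest and epithelia, with 519, 437 and 672 in primary mouth against 222, 212 and 222 in anterior dorsal tissue (log2 fold change 1.23 ± 0.18, adjusted p = 0.000671). Arrays did not overlap for either gene. The growth factor gene ptn.L (pleiotrophin), in none of these lists, differed by -2.41 ± 0.17 (adjusted p = 7.86e-06), and the actin regulator gene cyfip2.S by -2.15 ± 0.21 (adjusted p = 5.13e-05). Of 14 placode, pituitary and eye gene copies 8 were lower and 2 higher. The opsin-like gene rgr.S of the eye had 1.76, 2.82 and 1.75 in primary mouth against 95.3, 138 and 147 in anterior dorsal tissue (log2 fold change -2.96 ± 0.19, adjusted p = 4.42e-06), near the bottom of the scale in the mouth. The pigment gene pmel-a was lower, with a log2 fold change of -1.80 ± 0.23, and the crystallin gene cryba2.S, with pitx3.L above, was higher by 1.14 ± 0.17 (adjusted p = 0.000236 and 0.000982). Summed signals of 4 lens marker copies were 135 to 268 in primary mouth against 50.4 to 96.7 in anterior dorsal tissue. Only pitx3.L among them reached the level needed for a test, and cryba1.L was lower in every mouth array than in the anterior dorsal arrays. The other copies, of pitx3 and foxe3, belong to the primary mouth list as well, so the sum is no separate sign of lens.

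Most genes of DNA replication and division did not pass. Of 72 DNA replication gene copies 7 were lower, 65 did not pass, 6 had a log2 fold change above 0, and the median was -0.27. The median over all named gene copies was -0.01, and that of the list was -0.29 in the first batch alone and -0.20 in the second. With batch in the model 16 were lower. The count was 3 without primary mouth 1a, 1 without primary mouth 2 or anterior dorsal 2 or 3, 2 without ventral 2 and 11 without primary mouth 3. The call that held throughout was cdc6.S, a replication licensing factor, with signals of 140.4, 107 and 107 in primary mouth against 221, 281 and 283 in anterior dorsal tissue (log2 fold change -1.05 ± 0.17, adjusted p = 0.0015). Of 99 mitosis and cell cycle gene copies 5 were lower and 1 higher (12 lower with batch in the model), with a median of -0.25. The share of lower copies (5.05%) was near the background of 4.87%. The lower count was 2 without primary mouth 2, 3 without anterior dorsal 3 and 10 without primary mouth 3. The calls that held were the lower cdca7.L (-1.38 ± 0.20) and cenpv.L (-1.10 ± 0.19) and the higher plk2.S (1.04 ± 0.18), a polo-like kinase gene that responds to stress and signals (adjusted p = 0.000715, 0.00258 and 0.0024).

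Ribosomal protein genes lay on the other side of 0. Of 69 tested gene copies 67 had a log2 fold change above 0, with a median of 0.30, yet limma called 0 (5 had an unadjusted p under 0.05, and 3 were higher with batch in the model). Their median was 0.27 in the first batch alone, 0.08 in the second and 0.18 after quantile normalization. Without primary mouth 3, 3 were called. Among 118 translation factors and ribosome assembly genes 1 was higher and 84 lay above 0, with a median of 0.13 (14 higher with batch in the model). Of 25 aminoacyl-tRNA synthetase gene copies 1 was higher (4%, near the background), and of 74 genes of mitochondrial oxidative phosphorylation 1 was lower. The translation call, rrp7a.S, was lost without any 1 of the 6 arrays of these tissues (adjusted p = 0.0502 to 0.128), the synthetase call without primary mouth 1a or 2 or anterior dorsal 2 or 3, and the mitochondrial call without primary mouth 1a. Of 133 splicing and RNA-binding protein gene copies 6 were lower (4.51%), a share near the background of 4.87%. Of these, 3 held in every leave-one-out fit, and the count was 3 without anterior dorsal 3. Those 3 were neuronal RNA-binding proteins, not general splicing factors. Signals of nova2.L were 118, 129 and 105 in primary mouth against 659, 725 and 747 in anterior dorsal tissue (log2 fold change -2.44 ± 0.22, adjusted p = 2.9e-05), and celf3.L (-2.25 ± 0.21) and celf3.S (-2.28 ± 0.33) were lower alike.

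**Figure D4:**
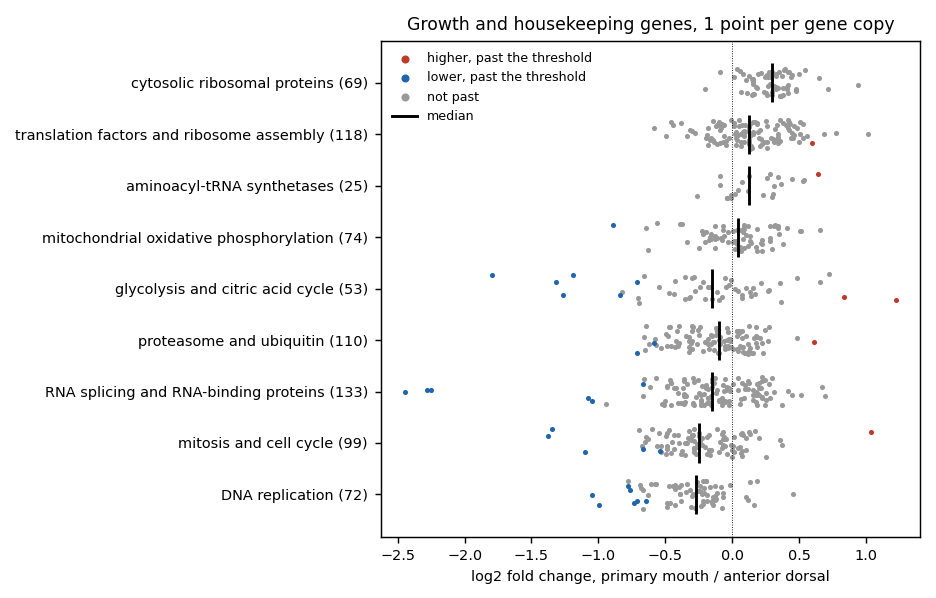
Each point is 1 gene copy of a growth or housekeeping list (number tested in brackets), placed by its log2 fold change, primary mouth over anterior dorsal tissue, with red and blue for those past the threshold as higher or lower and a black line at the list's median. Medians run from 0.30 for ribosomal proteins to -0.27 for DNA replication, and most points are grey.

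Several enzymes of sugar breakdown changed. Of 53 gene copies of glycolysis and the citric acid cycle 6 were lower and 2 higher (10 lower with batch in the model), with a median of -0.15. The hexokinase gene hk1.L, the first step of glycolysis, had signals of 90.01, 88.8 and 111 in primary mouth against 221, 262 and 238 in anterior dorsal tissue (log2 fold change -1.19 ± 0.16, adjusted p = 0.000362). The pyruvate kinase gene pkm.L, the last step, had 104, 91.7 and 122 in primary mouth against 268, 368 and 236 in anterior dorsal tissue (log2 fold change -1.32 ± 0.21, adjusted p = 0.00131). The isomerase gene gpi.S, the second step, went the other way, with 257, 255 and 196 in primary mouth against 102, 103 and 71.95 in anterior dorsal tissue (log2 fold change 1.22 ± 0.20, adjusted p = 0.00135). Arrays of the tissues were apart for all 3 enzymes. The lactate exporter gene slc16a3.L, one of the 6 lower copies, had the largest decrease of the list (-1.79 ± 0.21, adjusted p = 0.000153). It is counted among the solute carriers as well. The gene fah.L, which encodes the last enzyme of tyrosine breakdown, was higher by 1.86 ± 0.26 (adjusted p = 0.000588). Without primary mouth 2 or anterior dorsal 2 or 3, gpi.S was the only higher call of the list. Of 27 lipid and sterol gene copies 2 were lower, and both calls were lost without primary mouth 1a or 2 or anterior dorsal 2 or 3, and 1 without ventral 2.

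Solute carriers split evenly. Of 97 tested gene copies 6 were higher and 6 lower, with a median of -0.05, a share near the background (9 higher and 12 lower with batch in the model). Without anterior dorsal 2 or 3 the higher count was 3, and without primary mouth 3 the lower count was 11. The sodium-coupled monocarboxylate transporter gene slc5a8.1.L had signals of 121, 65.2 and 259.7 in primary mouth, 10.5, 7.15 and 4.64 in anterior dorsal and 1186, 946 and 1109.8 in ventral tissue (log2 fold change 2.64 ± 0.34, adjusted p = 0.000277). The amino acid transporter gene slc6a14.2.L had 108, 116 and 95.3 in primary mouth, 22.8, 19.2 and 15.9 in anterior dorsal and 555, 432 and 304 in ventral tissue (log2 fold change 1.79 ± 0.21, adjusted p = 0.000142). Both were lowest in anterior dorsal tissue and highest in ventral tissue. The neutral amino acid transporter gene slc7a5.L (-1.40 ± 0.21) and slc2a9.L (-1.27 ± 0.23), a urate and sugar transporter gene, were lower (adjusted p = 0.000924 and 0.0036). The largest decrease of this list was that of slc16a3.L, described above with the sugar enzymes.

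Of 120 gene copies of chaperones and stress responses 4 were higher (3.33%) and 5 lower (4.17%), shares near the background. The median was -0.01, and 9 were lower with batch in the model. The counts were 2 and 1 without primary mouth 1a or anterior dorsal 2, 2 and 2 without primary mouth 2, and 1 and 1 without anterior dorsal 3. Without primary mouth 3, 8 were lower, and without ventral 1 or 2, 3 were lower. One call in each direction held without each array, that of the glutathione transferase gene gsto1.S (1.49 ± 0.16, adjusted p = 8.31e-05) and that of dnajc9.L (-0.98 ± 0.16, adjusted p = 0.00188), a histone chaperone gene. Signals of gsto1.S were 692, 745 and 794 in primary mouth against 245, 235 and 285 in anterior dorsal tissue. The stress-responsive gene ndrg1.L, in none of the lists, had 117, 81.97 and 88.9 in primary mouth against 6.78, 2.83 and 4.79 in anterior dorsal tissue (log2 fold change 2.42 ± 0.19, adjusted p = 1.25e-05). Its anterior dorsal arrays were near the bottom of the scale. Of 83 chromatin regulators 1 was higher and 2 lower, of 110 proteasome and ubiquitin genes 1 was higher and 2 lower, and all 4 counts were 0 without anterior dorsal 3 and fell without at least 1 other array. Without primary mouth 3, 8 proteasome and ubiquitin genes were lower. Of 23 apoptosis gene copies limma called 0 (1 was higher and 2 were lower at an unadjusted p under 0.05). In the secretory pathway of the endoplasmic reticulum 2 of 105 were higher, both of them the agr2 copies of the cement gland list, and 1 was lower (3 with batch in the model), with a median of -0.13, and the lower count was 0 without anterior dorsal 2 or 3 or ventral 2 and 2 without primary mouth 3 or anterior dorsal 1. The lower gene was pdia6.L, whose call was also lost without primary mouth 1a or 3. Among 42 lysosome gene copies the 1 higher call was ctss.S.

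Actin and cell movement genes changed in both directions. Of 88 tested gene copies 9 were higher and 4 lower (14 higher and 6 lower with batch in the model), with a median of 0.07. The lower count was 2 without primary mouth 1a or 2 or anterior dorsal 2 or 3. The higher count was 7 without primary mouth 2 and 6 without anterior dorsal 2 or 3, and 6 higher calls held without each array. The annexin gene anxa2.S, which links membranes to actin, had signals of 2095, 3051 and 2574 in primary mouth against 897, 768 and 814 in anterior dorsal tissue (log2 fold change 1.61 ± 0.18, adjusted p = 0.000116), and anxa2.L differed by 1.26 ± 0.20 (adjusted p = 0.00126). Profilin 2, pfn2.L, the neuronal profilin of vertebrates, had 526, 315 and 429 in primary mouth against 1239, 1118 and 1272 in anterior dorsal tissue (log2 fold change -1.51 ± 0.20, adjusted p = 0.000311). No arrays overlapped between the tissues for these genes. The caveolin gene cav1.L was lower, with a log2 fold change of -1.42 ± 0.20 (adjusted p = 0.000697), with 18.8, 36.6 and 28.3 in primary mouth, 96.6, 108 and 95.7 in anterior dorsal and 169, 207 and 269 in ventral tissue. It was thus lowest in the mouth.

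Both copies of a gene were tested in 689 cases. Both were higher in 15 pairs and both lower in 16, 1 copy passed in 62 pairs, in 51 of which the other copy had the same sign, and neither passed in 594. In 2 pairs the copies passed in opposite directions. For the mitochondrial creatine kinase gene, ckmt1b.L had signals of 11.8, 28.5 and 21.3 in primary mouth against 70.8, 74.8 and 76.1 in anterior dorsal tissue (-1.33 ± 0.19, adjusted p = 0.000708). Its partner ckmt1b.S had 237, 396 and 588 in primary mouth against 127, 142 and 132 in anterior dorsal tissue (1.41 ± 0.27, adjusted p = 0.00493). For the tetraspanin gene cd37, the .L copy had 63.4, 83.6 and 51.8 in primary mouth against 24.99, 28.3 and 25.6 in anterior dorsal tissue (0.94 ± 0.18, adjusted p = 0.00554). The .S copy had 25.1, 27.3 and 23.9 in primary mouth against 91.97, 89.6 and 88.7 in anterior dorsal tissue (-1.36 ± 0.15, adjusted p = 0.000117). All 4 calls held without each array, and none of the groups overlapped. Whether the probe sets of these pairs detect only their own copy was not tested.

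**Figure D5:**
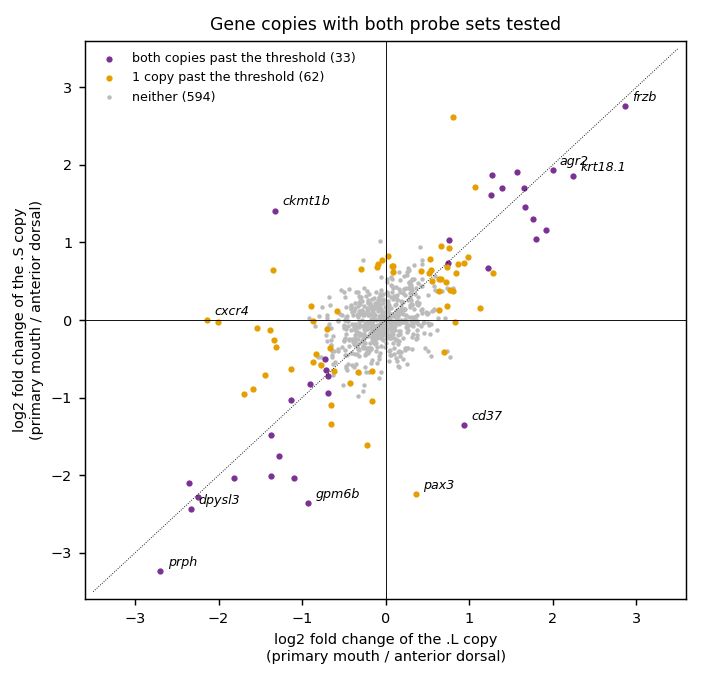
Each point is 1 of 689 genes with both copies tested, placed by the log2 fold change, primary mouth over anterior dorsal tissue, of its .L copy (horizontal) and .S copy (vertical), with the dotted line marking equal change. Purple points (33) have both copies past the threshold, orange points (62) have 1, and grey points (594) have neither, and cd37 and ckmt1b lie in the quadrants of opposite sign.

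The forebrain, heart, blood and plasma protein groups frame these results, and some of their members are also counted in lists above. Of 43 forebrain and neural tube gene copies 33 were lower and 1 higher, with a median of -1.33. Of 15 heart gene copies 3 were higher and 1 lower (2 lower without primary mouth 3 or anterior dorsal 1). Of 10 tested blood gene copies (24 on the array) 5 were higher and 1 lower. The lower call was lost without primary mouth 1a or 2 or anterior dorsal 2 or 3. The untested copies included the globin genes hba1.S, hba2.L, hba3.L, hba4.S, hbd.S, hbg1.L and hbg2.L, both gata1 copies and slc4a1.L. The count therefore does not cover these genes. Of 23 plasma protein gene copies 9 were higher and 2 lower (14 and 2 with batch in the model). Of 19 skeletal muscle gene copies 3 were higher and 2 lower (5 higher without primary mouth 3, and 1 lower without primary mouth 1a or 2 or any anterior dorsal array). The calls that held were the troponin gene tnni2.S (0.97 ± 0.17, adjusted p = 0.00266) and the ckmt1b pair, whose copies went in opposite directions. The muscle creatine kinase gene ckm.L did not pass (0.70 ± 0.21, adjusted p = 0.0557). Of 7 notochord gene copies nog.L was higher and chrd.1.S and not.L were lower (2 higher without primary mouth 3). Of 5 hatching gland gene copies 2 were lower, of which only pax3.S held without primary mouth 1a or 2 or any anterior dorsal array. Summed signals of 4 heart marker copies were 123 to 228 in primary mouth, 7.64 to 25.2 in anterior dorsal and 707 to 946 in ventral tissue. Almost all of the heart sum in primary mouth came from the transcription factor gene nkx2-5.S, with 120.4, 126 and 223 in primary mouth against 7.02, 11.8 and 4.88 in anterior dorsal tissue. The contractile genes tnni3.L (-0.23 ± 0.26) and tnni3.S (0.31 ± 0.29) did not pass, and myh6.S, at 0.597 to 1.26 in primary mouth against 0.584 to 5.699 in anterior dorsal tissue, did not reach the level needed for a test. Summed signals of 4 blood markers, none of which reached the level needed for a test, were 15.9 to 21.3 in primary mouth against 13.7 to 43.5 in anterior dorsal tissue. Those of 6 liver and foregut marker copies were 3146 to 3858 in primary mouth against 586 to 669 in anterior dorsal tissue. Nearly all of that sum came from a2m.S and tf.L, which encode plasma proteins and were both higher (log2 fold changes 2.53 ± 0.20 and 3.18 ± 0.19, adjusted p = 1.17e-05 and 3.68e-06), and the other 4 copies were not tested. Among these serpina1.S had 6.77, 1.44 and 8.71 in primary mouth against 33.7, 22.5 and 31.4 in anterior dorsal tissue. The part of such cells in the higher groups above was not tested.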

How the data were processed

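Total RNA of 3 dissected tissues at stage 26 was measured on Affymetrix arrays, 3 arrays per tissue. The deposited table gives 1 linear signal intensity per probe set and array, made by the authors with MAS5 (so named in the submitters' processing notes). Neither version nor settings are stated in the sources used here. Detection calls were not used, so low signals were not read as absence. Signals were kept as deposited. Median signals were 51.1 to 59.6 per array, and precision is limited by the 3 arrays of a tissue.

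Of 15491 probe sets that are no controls, the platform annotation names 1 gene for 9304, several for 195 and none for 5992, and genes were named from the first kind alone. RefSeq's gene table (Xenopus_laevis_v10.1), used for names and not for coordinates, matched 9227 of them and updated 2 symbols. Symbols that are clone, LOC or XB placeholders (327 probe sets) were not named. A gene copy was represented by its probe set with the highest mean.

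Values were log2(signal + 16), which understates changes of low genes. All 9 arrays entered a single limma model (version 3.58.1, under R 4.3.3) that had a mean for each tissue and 6 residual degrees of freedom, and lmFit was followed by eBayes with trend. The contrast primary mouth minus anterior dorsal tissue was tested two-sided with Benjamini-Hochberg adjustment over all 10011 tested probe sets, at a threshold of 0.05. Errors of fold changes are SE. The fit was tested on simulated data with independent noise on each array and no batches. That test could not show how the batches affect the calls.

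Same-numbered samples of the tissues deviated from their group means with correlations of 0.44, -0.23 and 0.58, so the numbers were not taken as pairs. The samples of the pair at -0.23 lay in different batches, and those of the other pairs shared a batch. The batches were read from beta-actin 3' to 5' ratios and the spiked-in dap control, and 2565 tested probe sets differed between them. Both batches hold both tissues in unequal numbers, and within the first the spread comes from the primary mouth alone.

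Genes described by name came first from the 25 largest changes per direction outside the forebrain, heart, blood and plasma protein lists. For these 25, full separation of the arrays of both tissues was a condition of the choice and not a finding. Such separation held for 952 of all 957 called probe sets, so where it is stated it is no further evidence for a call. Further genes were up to 4 per direction from each of the other lists, and copies called in opposite directions. The genes frzb, pitx1, kng1, cpn1, nos1, shh, otx2, ag1 and agr2 were added by name, with cell type markers beside them. Those that the account turns on are described, and the others enter its counts. One further result is not reported here. The genes, the 53 lists and the markers were chosen with earlier results of these data known. Alternatives changed the filter, pseudocount, scaling, variance model, arrays, batch term and replicate block.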

Additional observations from a re-analysis of the deposited data

How the results depend on the processing

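Counts of higher and lower probe sets, 469 and 488 as reported, stayed within 1.5 times under other pseudocounts, scalings and variance models, without a filter, with 6 arrays only and within the second batch. They were 791 and 812 with batch in the model, and 235 and 279 within the first batch, where primary mouth has 2 arrays and anterior dorsal tissue 1. A filter at the 60th percentile gave 321 lower probe sets. The replicate block, which groups samples by number, gave 809 and 845. All samples numbered 1 (1a in primary mouth) lay in the first batch and all numbered 3 in the second. Number and batch therefore largely coincided. Leaving out 1 array gave 282 to 565 higher and 326 to 562 lower probe sets, with the fewest higher ones without anterior dorsal 3 (282) or 2 (292). The cause of these moves was not tested. Of 198 named gene copies past the threshold, 138 kept their call without each array, and 101 under all 22 alternatives. The keratin median turned to -0.12 under quantile normalization, and shh.L, which did not pass, had -0.16 within the second batch. Counting every probe set of a list singly moved 3 list medians (blood, cement gland and the peptide list) by more than the median SE of the list's genes, and 49 by less. Changes of genes with low signal in both tissues are limited by the array's background.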

Other observations

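Called gene copies that belong to none of the lists numbered 125 higher and 101 lower, and 43 and 55 of these kept their call without each array. The examples here were chosen after their values were seen. Among the higher ones was anxa1.1.L, a calcium-dependent membrane-binding annexin, with signals of 552, 509 and 516 in primary mouth against 168, 118 and 136 in anterior dorsal tissue (log2 fold change 1.80 ± 0.17, adjusted p = 3.94e-05). The kinase gene pak1.S, an effector of Rac and Cdc42, had 166, 144 and 270.4 in primary mouth against 26.4, 47.7 and 54.1 in anterior dorsal tissue (log2 fold change 1.82 ± 0.27, adjusted p = 0.000746). The protease inhibitor gene serpine2.S differed by 1.23 ± 0.18 (adjusted p = 0.00073) and the apical membrane traffic gene mal2.S by 1.43 ± 0.16 (adjusted p = 0.000126). All mouth arrays of these genes lay above all anterior dorsal arrays.

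Among the lower ones qdpr.L, which encodes the dihydropteridine reductase that recycles the cofactor of aromatic amino acid hydroxylases, had signals of 71.5, 64.7 and 43.97 in primary mouth against 260.4, 263 and 316 in anterior dorsal tissue (log2 fold change -1.97 ± 0.20, adjusted p = 6.22e-05). The neuronal calcium sensor gene ncald.L had 235, 131 and 161 in primary mouth against 731, 629 and 587 in anterior dorsal tissue (log2 fold change -1.83 ± 0.22, adjusted p = 0.000154). The brain creatine kinase gene ckb.L differed by -1.60 ± 0.19 (adjusted p = 0.000151), the dense-core vesicle release gene cadps.L by -1.39 ± 0.21 (adjusted p = 0.00108), and the spalt-like factor gene sall3.L by -1.46 ± 0.18 (adjusted p = 0.000187). Here too no arrays of the tissues overlapped. A further 365 probe sets past the threshold carry no single gene name and stay undescribed.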
